A study of Mus musculus with 6 samples.

Results

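The PEA3 factors and the feedback genes of ERK signalling were followed in dorsal root ganglia, the clusters of sensory neurons and glia beside the spinal cord. The 9 genes were taken by their symbols from a table of 17971 genes: the transcription factor genes Etv1, Etv4 and Etv5, the phosphatase gene Dusp6, the Sprouty genes Spry1, Spry2 and Spry4, and the Spred genes Spred1 and Spred2. All 9 were among the 14338 genes with enough counts to be tested. The members were chosen by name with their counts and TPM in cKO and Ctrl already known, so their values are a description and not an independent test. Ganglia were taken at E13.5 from 3 male cKO embryos (Wnt1-cre+/-;Ybx1fl/fl) and 3 male Ctrl littermates (Ybx1fl/fl). Both groups carry the floxed Ybx1 alleles. Cre under Wnt1 control is active in neural crest, from which the neurons and glia of these ganglia come, and not in their blood, vascular and macrophage cells. Only cKO embryos carry Cre, so an effect of the transgene and the loss of Ybx1 cannot be told apart.

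PEA3 factors are a subfamily of the ETS transcription factors, whose DNA-binding domain recognises a GGAA core. Growth factor receptors act through Ras, Raf and MEK on the kinase ERK, which activates PEA3 factors and also raises their transcription. In sensory ganglia Etv1 is known from proprioceptive neurons, which sense muscle stretch and depend on neurotrophin 3, and Etv4 and Etv5 are known to be induced by nerve growth factor. The same pathway induces its own brakes. Dusp6 removes the activating phosphates from ERK, Sprouty proteins act between receptor and Raf, and Spred proteins bring the Ras inhibitor neurofibromin to the membrane.

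The proximal promoters of Etv1, Etv5 and Dusp6 are shown because Ybx1 takes its name from the Y-box, a promoter element built on an inverted CCAAT. They compare the related genes Etv1 and Etv5 and a feedback gene. Each runs from 250 bases before to 50 bases after a RefSeq start site, 5′ to 3′ on the strand of the gene in GRCm38.p6, with CCAAT on either strand in capitals. The Etv1 window is chr12:38779832-38780131 (plus strand), that of Etv5 chr16:22439521-22439820 (minus strand) and that of Dusp6 chr10:99262981-99263280 (plus strand).
Etv1: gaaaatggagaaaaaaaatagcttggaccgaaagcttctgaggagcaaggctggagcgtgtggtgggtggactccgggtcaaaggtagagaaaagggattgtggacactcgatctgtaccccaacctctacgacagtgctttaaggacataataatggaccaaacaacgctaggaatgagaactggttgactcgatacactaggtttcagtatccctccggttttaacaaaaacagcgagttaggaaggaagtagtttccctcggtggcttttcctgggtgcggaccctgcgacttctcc
Etv5: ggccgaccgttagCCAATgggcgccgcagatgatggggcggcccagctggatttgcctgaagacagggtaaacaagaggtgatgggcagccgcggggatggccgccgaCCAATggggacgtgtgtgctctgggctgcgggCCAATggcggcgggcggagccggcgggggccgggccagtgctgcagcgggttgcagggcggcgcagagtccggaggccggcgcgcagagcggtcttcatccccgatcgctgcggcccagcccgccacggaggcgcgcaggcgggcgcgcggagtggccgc
Dusp6: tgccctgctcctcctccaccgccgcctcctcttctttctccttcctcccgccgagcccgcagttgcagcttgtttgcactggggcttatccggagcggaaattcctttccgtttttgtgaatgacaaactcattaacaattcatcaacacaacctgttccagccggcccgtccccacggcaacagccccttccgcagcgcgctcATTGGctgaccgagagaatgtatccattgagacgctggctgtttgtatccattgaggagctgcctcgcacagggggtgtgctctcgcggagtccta
The Etv5 window holds CCAAT 3 times on its own strand, beginning 237, 142 and 110 bases before the start. Dusp6 holds it once, on the opposite strand and 46 bases before the start, and Etv1 not at all. RefSeq entries were matched for 7 of the 9 genes, all but Etv4 and Spry4, with 9 windows in all. CCAAT on either strand was in 5 of the 9 windows, those of Spry1, Dusp6, Spred2 and both of Etv5. It was in 37.4% of all 32851 windows, and 3.37% of all windows held it 3 times or more. The Etv5 window not printed held 1 CCAAT, on the opposite strand, so the count for this gene depends on the start site. Neither Etv1 window held it. An ETS site written as CCGGAA was in 1 of the 9, that of Spry2, against 14.9% of all windows. This pattern is narrower than the GGAA core, which was not counted and which the printed Etv1 and Dusp6 windows both hold. The cyclic AMP element TGACGTCA, the AP-1 site TGANTCA and the CArG box of serum response factor were in none of the 9, against 1.79%, 7.81% and 1.63% of all windows. No match of one motif overlapped a match of another in the 9 windows. These are matches of letters only, and no binding was measured.

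Ybx1, the gene deleted by Cre, checked the labels. It had 137, 122 and 108 CPM (read counts scaled to TMM library sizes) in cKO replicates 1, 2 and 3, against 927, 809 and 817 CPM in the Ctrl replicates, and every library went with its genotype. Depth was 16464264 to 17446385 estimated counts per library. The libraries numbered 1 stood apart, with deposited FPKM sums of 614728 in cKO and 590156 in Ctrl and of 548068 to 551964 in the other 4, and fold changes that leaving them out moved strongly are also given without them. Summed TPM (a library-scaled abundance per length) of 14 sensory neuron markers was 15047 to 16960 in cKO and 15602 to 16179 in Ctrl. With the replicate number in the fit 1 of them was called higher and 3 lower, against 1.76% higher and 3.56% lower among all genes tested. The fit over all genes called 69 of 14338 at an edgeR adjusted p under 0.05, 16 higher and 53 lower. Scaled by library totals it called 44, 16 higher and 28 lower.

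Among the 9 genes, Etv4 was the one called in cKO ganglia, and it was lower. Adding the replicate number as a block, since each pair of same-numbered libraries is taken to share a litter, also called Etv1 as lower. That is 1 of 9 genes where 0.481% of all genes tested were called (0.37% lower), and 2 of 9 where 5.33% were called with the block (3.56% lower), and nothing is read from these shares because the set was chosen with the comparison known. In 2 of the 9, Etv1 and Etv4, the groups of CPM did not overlap; over all genes tested this held for 16.6%, with 7.83% higher and 8.77% lower in cKO. Same-numbered pairs all had the same sign in 3 of the 9, 2 lower and 1 higher, against 39.9% of all genes tested, 20.3% lower and 19.6% higher. No member was called higher, and at an unadjusted edgeR p under 0.05 there were 0 higher and 2 lower, against 10.7% of all genes tested (4.62% higher, 6.1% lower). DESeq2 and limma-voom also called 1 member each, against 1.28% and 0.425% of all genes tested. The median log2 fold change of the 9 was -0.08, against 0.0044 for all genes tested. It was 0.037 without Ctrl replicate 1 and 0.0043 without cKO replicate 3, so its sign rested on single libraries.

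Etv4 (gene identifier 18612, chromosome 11, 101769747 to 101785310, GRCm38), the founding PEA3 factor, had 22.1, 21.96 and 23.8 CPM in cKO replicates 1 to 3, against 37.95, 36.98 and 34.0 CPM in Ctrl. The groups lay well apart, and every cKO library was below every Ctrl library. Means were 22.6 ± 1.02 CPM in cKO and 36.3 ± 2.05 CPM in Ctrl (SD, n = 3 each). Etv4 fell by 37.7%. On the log2 scale this was -0.68 ± 0.08 (SE; edgeR adjusted p 0.00363). In the same-numbered pairs its log2 ratios were -0.77, -0.74 and -0.51. By p-value in edgeR it ranked 8 among all genes tested, and 1.24% of genes had a log2 fold change of at least its size. The call held without any single library (log2 fold change -0.73 to -0.65, edgeR adjusted p up to 0.0402). With both libraries of a number left out, each group has 2 libraries. Without the block the call then held without number 1 and was lost without number 2 (edgeR adjusted p 0.145) and without number 3 (0.0596). With the block Etv4 was called on all 6 libraries (edgeR adjusted p 4.8e-05) and without number 1, 2 or 3 (edgeR adjusted p up to 0.000119).

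Etv1 (gene identifier 14009, chromosome 12, 38780082 to 38870483, GRCm38), the factor of proprioceptive neurons, had 103, 122 and 114 CPM in cKO, against 131, 136 and 133 CPM in Ctrl. On this scale the groups did not overlap, and cKO replicate 1 was the lowest of the 6 libraries. In TPM the groups did overlap, with 32.5, 45.1 and 40.5 in cKO against 43.1, 48.6 and 46.9 in Ctrl. The lowest value was again that of cKO replicate 1, the library with the most erythroid marker TPM (41490); the part of this in the value was not tested. Its log2 fold change was -0.24 (SE 0.07), with an edgeR adjusted p of 0.225 without the block and of 0.014 with it. Without cKO replicate 1 it was -0.18, and with the block and without both libraries numbered 2 the call was lost (edgeR adjusted p 0.0582). The Etv1 counts were fractional in all 6 libraries, which is how reads shared with other genes appear in estimated counts, and those of Etv4 and Etv5 were whole in all 6.

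Etv5 (gene identifier 104156), the third PEA3 factor, had 81.0, 109 and 99.8 CPM in cKO, against 88.0, 97.4 and 88.5 CPM in Ctrl. The groups overlapped, with both the lowest and the highest value in cKO. Its log2 fold change was 0.08 ± 0.10 (SE, edgeR adjusted p 0.849), and it rested on single libraries: it was 0.19 without cKO replicate 1, -0.015 without cKO replicate 2 and 0.17 without both libraries numbered 1. The cKO group was lower in pair 1 (log2 ratio -0.12) and higher in pairs 2 and 3 (0.16 and 0.17).

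**Figure D1:**
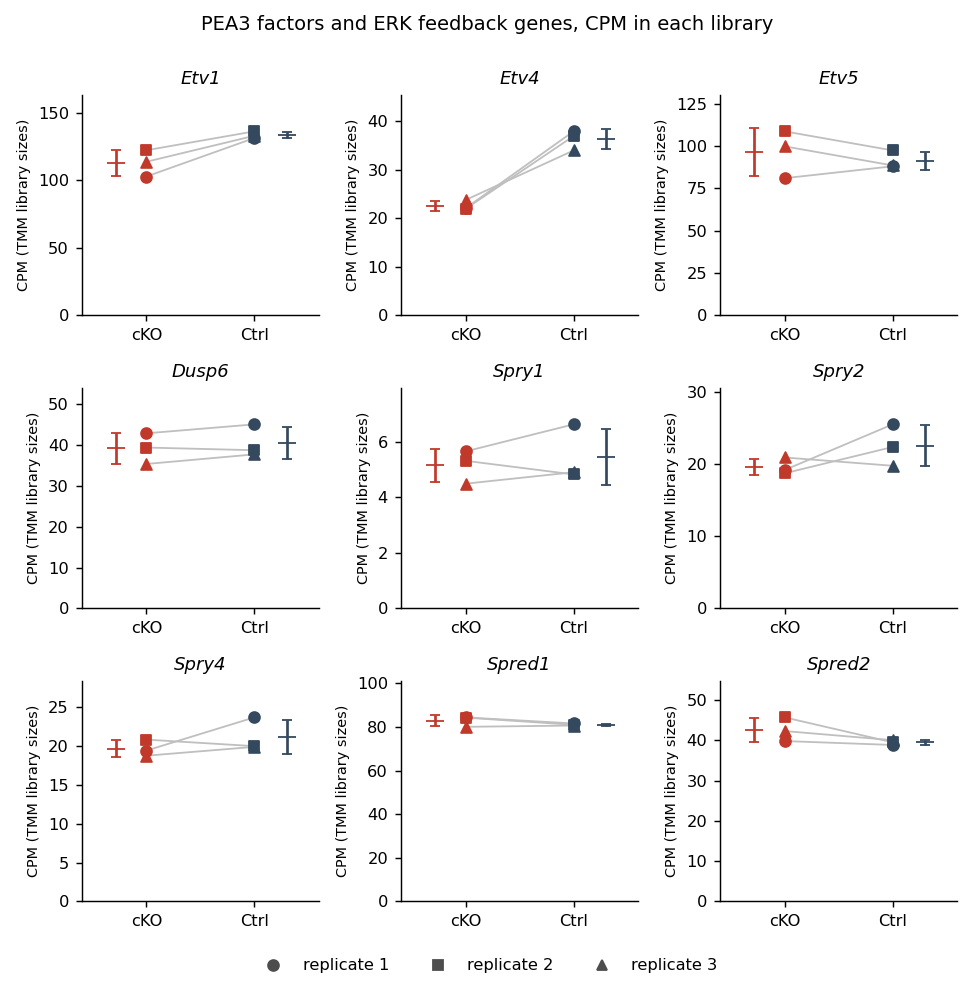
CPM of each of the 9 genes in the 3 cKO and 3 Ctrl libraries, with lines joining same-numbered libraries and bars beside the points for mean ± SD. Etv4 lay between 21.96 and 23.8 CPM in cKO and between 34.0 and 37.95 CPM in Ctrl, and among the other genes the groups were apart for Etv1.

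The make-up of the PEA3 family differed between the groups. Etv4 made up 19.9%, 16.1% and 18.4% of the summed TPM of the 3 factors in cKO, against 26.2%, 24.4% and 24.2% in Ctrl. Etv5 made up 42.9%, 46.7% and 45.9% in cKO, against 36.3%, 38.2% and 37.0% in Ctrl. For both genes the groups were apart. Etv1 made up 37.1%, 37.2% and 35.7% in cKO, against 37.5%, 37.3% and 38.8% in Ctrl, and its groups were separated by a narrow gap. Such shares are taken within a library, so they do not depend on library size, and they show unequal change without saying which gene changed. The ratio of Etv4 to Etv5 in TPM was 0.404 ± 0.0597 in cKO and 0.671 ± 0.0445 in Ctrl (SD, n = 3 each). The summed TPM of the family was 87.6, 121 and 113 in cKO and 115, 130 and 121 in Ctrl, and the groups overlapped.

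**Figure D2:**
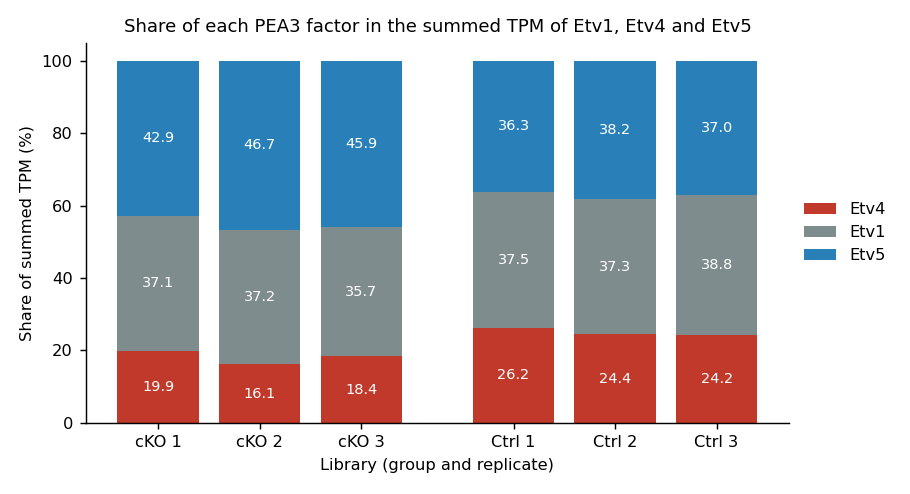
Share of Etv4, Etv1 and Etv5 in their summed TPM, in percent, for each library, with cKO on the left and Ctrl on the right. The Etv4 share was 16.1% to 19.9% in cKO and 24.2% to 26.2% in Ctrl, and the Etv5 share was higher in each cKO library than in any Ctrl library.

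Dusp6 (gene identifier 67603, chromosome 10), the ERK phosphatase, had 42.9, 39.4 and 35.4 CPM in cKO, against 45.1, 38.8 and 37.7 CPM in Ctrl. In both groups replicate 1 was highest and replicate 3 lowest, and the groups overlapped. Its log2 fold change was -0.05 ± 0.09 (SE, edgeR adjusted p 0.914), and it was positive without cKO replicate 3 (0.019) and without Ctrl replicate 1 (0.037).

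The Sprouty genes did not pass the test in either fit. Spry2 had 19.1, 18.7 and 20.9 CPM in cKO, against 25.5, 22.3 and 19.7 CPM in Ctrl, a difference of -0.20 ± 0.10 on the log2 scale (SE; edgeR adjusted p 0.534; 0.247 with the block). Its groups overlapped through replicate 3, where cKO was above Ctrl; with the block and without both libraries numbered 3 it was called lower (log2 fold change -0.34, edgeR adjusted p 0.0296). The Spry2 difference was -0.10 without Ctrl replicate 1 and -0.089 without both libraries numbered 1. Spry4 had 19.4, 20.9 and 18.8 CPM in cKO, against 23.7, 20.01 and 19.9 CPM in Ctrl (log2 fold change -0.11, SE 0.10, edgeR adjusted p 0.770). Its difference was -0.020 without Ctrl replicate 1 and -0.011 without both libraries numbered 1. Spry1, the scarcest of the 9 with 76.9 to 114 counts per library, had 5.65, 5.31 and 4.49 CPM in cKO, against 6.63, 4.82 and 4.90 CPM in Ctrl. On the log2 scale it differed by -0.08 ± 0.17 (SE; edgeR adjusted p 0.915), and this turned positive without cKO replicate 3 (0.0043), without Ctrl replicate 1 (0.084) and without both libraries numbered 1 (0.012). In each of these genes the highest value was that of Ctrl replicate 1. An annotated gene on the opposite strand, Gm42922, covers 24.4% of the Spry1 exon bases, and the sources used here do not say whether counting used strand.

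The Spred genes did not pass the test in either fit. Spred1 had 84.4, 84.3 and 80.1 CPM in cKO, against 81.6, 81.0 and 80.6 CPM in Ctrl, a difference of 0.03 ± 0.06 on the log2 scale (SE; edgeR adjusted p 0.912). Spred2 had 39.8, 45.7 and 42.3 CPM in cKO, against 38.8, 39.5 and 40.0 CPM in Ctrl, a difference of 0.11 ± 0.07 on the log2 scale (SE; edgeR adjusted p 0.671). It was above Ctrl in all 3 pairs, as were 19.6% of all genes tested, while its groups overlapped. Without cKO replicate 2 the difference was 0.056, and that of Spred1 ran from 0.018 to 0.059 over the alternatives.

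**Figure D3:**
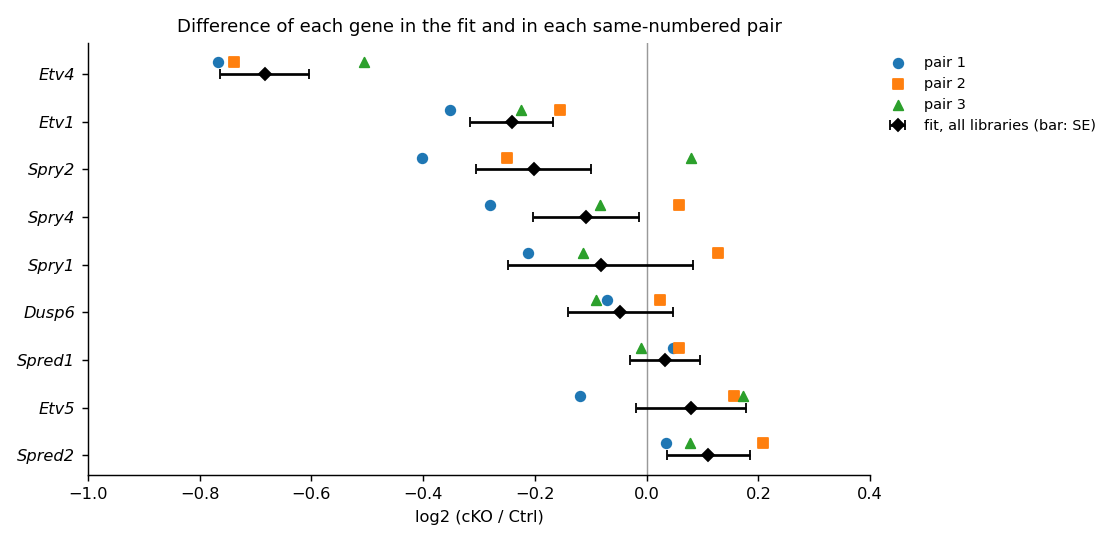
Log2 ratio of cKO to Ctrl for each gene, with the fitted log2 fold change and its SE as a diamond with bars and the 3 same-numbered pairs as coloured points. Etv4 lies at -0.68 with all 3 pairs below -0.50, Etv1 is below 0 in all 3 pairs, and Spred2 is above 0 in all 3.

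Levels could be set between the genes in TPM, which is per length. Ordered by the median over the 6 libraries, they ran from Etv5 (47.3 TPM) and Etv1 (44.1) through Dusp6 (28.1), Etv4 (25.02), Spred1 (24.6), Spred2 (22.06), Spry2 (17.7) and Spry4 (7.99) to Spry1 (4.34). Etv5 and Etv1 overlapped over the 6 libraries, and each gene from Dusp6 to Spry2 overlapped its neighbour in the order. There was no overlap between Etv1 and Dusp6, between Spry2 and Spry4 or between Spry4 and Spry1. The median of Etv5 was above that of 74.7% of genes tested and that of Spry1 above that of 19.9%. Within the groups, Etv4 had place 6 in cKO and place 3 in Ctrl, and Etv1 had place 2 in cKO and place 1 in Ctrl.

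The genes most like Etv4 over the 6 libraries, among 11884 with a mean of at least 5 CPM, were Ccdc184, Ap1s2, Samd10, Fst and Sult4a1, with Pearson correlations of log2 CPM of 0.989 to 0.996. Fst encodes follistatin, a binder of activins, and Ap1s2 a subunit of a clathrin adaptor. All points share the 6 libraries, and a gene that differs between the groups as Etv4 does will rank high by this measure. Fst had 9.52, 9.64 and 9.62 CPM in cKO, against 13.7, 12.9 and 12.8 CPM in Ctrl (log2 fold change -0.46, edgeR adjusted p 0.0693). Samd10 was the one of the 5 called (log2 fold change -0.35, edgeR adjusted p 0.0446). Among the other members the value was highest for Etv1, at 0.843 (place 528), and lowest for Spred2, at -0.698.

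Around these genes, 192 others were listed in 8 groups along the pathway and its targets, and 173 were tested. In cKO, 0 were called higher and 1 lower by edgeR, with 12 higher and 17 lower at an unadjusted p under 0.05, against 4.62% higher and 6.1% lower among all genes tested. DESeq2 called 4 of the 173 and limma-voom 1, against 1.28% and 0.425% of all genes tested. With the replicate block 6 were higher and 12 lower, against 1.76% higher and 3.56% lower among all genes tested. Of these 18, the call was lost for 4 with library totals, for 2 without both libraries numbered 1, for 13 without both numbered 2 and for 7 without both numbered 3. Ret, Fgf12, Chodl and Calb1 were called in every one of these blocked fits. The fits reuse the same libraries, so a call held in all of them is no replication.

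Of the receptors that feed the pathway, 26 were tested and their median log2 fold change was 0.00. The edgeR fit without the block called none. With no filter on counts that fit called Ret (edgeR adjusted p 0.0439), and DESeq2 also called Ret (adjusted p 0.00467). With the block 3 were called lower: Ret, the signalling receptor for GDNF family ligands, Ntrk2, the receptor for BDNF, and Gfra2, a coreceptor for neurturin. Ret had 160, 189 and 170 CPM in cKO, against 219, 230 and 214 CPM in Ctrl (log2 fold change -0.36, edgeR adjusted p 0.0719; 0.000665 with the block). Ntrk2 had 95.1 ± 5.63 CPM in cKO and 114 ± 3.14 CPM in Ctrl, and Gfra2 54.3 ± 2.67 CPM in cKO and 62.4 ± 3.67 CPM in Ctrl (SD, n = 3 each; blocked edgeR adjusted p 0.00778 and 0.0476). The groups were apart for all 3. With the block, the Ntrk2 call was lost without number 2 (edgeR adjusted p 0.104), and the Gfra2 call with library totals (0.0829) and without number 2 (0.336) or 3 (0.126). Of 27 ligand genes (median log2 fold change 0.00), Fgf12, which encodes an FGF homologue that stays in the cell, rose with the block (log2 fold change 0.32, edgeR adjusted p 0.103; 0.0082 with the block).

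The core of the cascade, from adaptors to ERK, had 40 genes tested and a median log2 fold change of -0.02. With the block Shc1, an adaptor between receptors and Ras, was called lower (-0.19 on the log2 scale, edgeR adjusted p 0.0357) and Sos1, an exchange factor that loads Ras, higher (0.19, 0.0468). Neither was called by edgeR on all 6 libraries without the block, and the Sos1 groups overlapped. The blocked Shc1 call was lost with library totals (edgeR adjusted p 0.0673) and without number 2 (0.418) or 3 (0.0509), and that of Sos1 without number 2 (0.438, edgeR) or 3 (0.0754).

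A list drawn up for other feedback genes had 22 tested (median log2 fold change 0.03). It is broad, and not all its genes are known brakes of ERK. None was called by edgeR on all 6 libraries without the block, DESeq2 called Phlda1 (adjusted p 0.0169), and 4 were called with the block. Spred3, the remaining Spred gene, was called lower with the block: it had 67.8, 72.5 and 72.0 CPM in cKO, against 79.3, 87.6 and 81.3 CPM in Ctrl (log2 fold change -0.23, edgeR adjusted p 0.215; 0.0201 with the block). It was the one Spred gene whose groups did not overlap. Dusp9, another ERK phosphatase gene, was also called lower with the block, at 0.807, 1.23 and 1.05 CPM in cKO against 2.09, 2.38 and 1.90 CPM in Ctrl (log2 fold change -1.04, SE 0.24, edgeR adjusted p 0.0916; 0.0237 with the block). Peak1, a pseudokinase gene, was called lower in that fit as well (log2 fold change -0.18, blocked edgeR adjusted p 0.0456), but its groups overlapped and its value without single libraries ran from -0.28 (without Ctrl replicate 1) to -0.077 (without cKO replicate 1). Phlda1 was called higher in it, at 109 ± 3.19 CPM in cKO and 87.5 ± 4.46 CPM in Ctrl (SD, n = 3 each; log2 fold change 0.31, edgeR adjusted p 0.0715; 0.00295 with the block). Without number 2 the blocked calls of all 4 were lost (edgeR adjusted p 0.281 for Spred3, 0.108 for Dusp9, 0.284 for Peak1 and 0.0664 for Phlda1). That of Dusp9 was also lost without number 1 (0.0504, edgeR), and that of Peak1 without number 3 (0.129) and with library totals (0.0835).

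Immediate early genes, the first to be transcribed after a signal, had a median log2 fold change of 0.03 over 20 tested. With the block the AP-1 gene Jun was called lower (-0.20 on the log2 scale, edgeR adjusted p 0.0448) and its relative Jund higher (0.21, 0.0293), with overlapping groups for Jund. The blocked Jun call was lost with library totals (edgeR adjusted p 0.0762) and without number 1 (0.119) or 2 (0.312), and that of Jund without number 2 (0.418) or 3 (0.0647). Without Ctrl replicate 1 and without the block the log2 fold changes were -0.11 for Jun and 0.32 for Jund. None of the 15 other ETS factor genes tested was called in either fit, with 1 higher and 0 lower at an unadjusted edgeR p under 0.05 and none called by DESeq2 or limma-voom. Their most highly expressed members were the repressor gene Erf (log2 fold change 0.07, SE 0.07) and Elf2 (0.01, SE 0.07).

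Among 13 genes listed for proprioceptive neurons other than Etv1 (median log2 fold change 0.00), Chodl, which encodes the membrane lectin chondrolectin, fell. It had 13.4, 12.3 and 11.7 CPM in cKO, against 18.4, 16.6 and 18.5 CPM in Ctrl (log2 fold change -0.52, SE 0.10, edgeR adjusted p 0.0449). The groups were apart, but the call was lost with library totals (edgeR adjusted p 0.0601) and on leaving out 5 of the 6 libraries in turn, the exception being cKO replicate 1 (up to 0.211). With the block Calb1, a calcium-binding protein gene, was called higher (log2 fold change 0.51, blocked edgeR adjusted p 0.0023), as was Fxyd7, a regulator of the sodium pump (0.26, 0.00526; 0.0986 without number 2). Without the block Calb1 was called by DESeq2 (adjusted p 0.0215) and by edgeR with no filter on counts (adjusted p 0.0382). Of 11 further genes of guidance, adhesion and cell movement drawn up around the PEA3 factors (median -0.01), 3 were called lower with the block: Capn6, a calpain family gene (-0.41 on the log2 scale, edgeR adjusted p 0.0144 with the block), the chemokine receptor gene Cxcr4 (-0.34, 0.00985) and the intermediate filament gene Vim (-0.17, 0.0147). The Vim groups overlapped, and its log2 fold change was -0.11 without Ctrl replicate 1. The blocked calls were lost without number 2 for Cxcr4 (edgeR adjusted p 0.0744) and Vim (0.142), and without number 3 for Capn6 (0.0696) and Vim (0.0665).

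**Figure D4:**
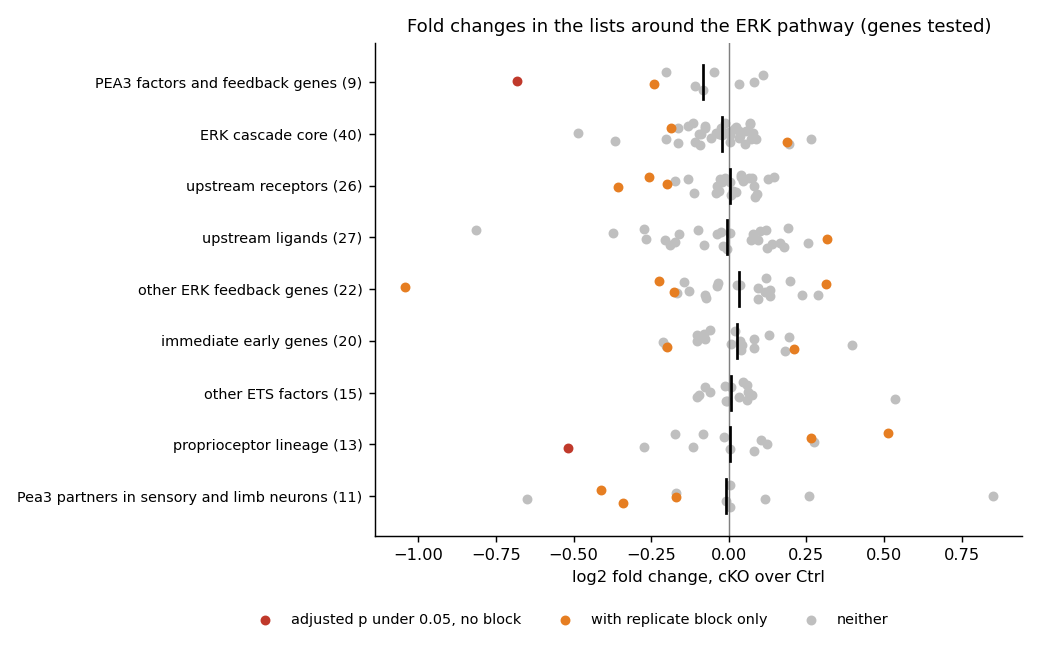
Log2 fold change, cKO over Ctrl, of the tested genes of each list, with the median as a black line and colours for the fit that called a gene. Etv4 and Chodl were called without the block, and the list medians other than that of the 9 genes lay between -0.02 and 0.03.

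Of 11 lists of cell type markers, 3 had summed TPM higher in every cKO library than in any Ctrl library. Among single genes tested, 7.83% had groups of CPM apart in this direction, and nothing is read from the count of lists. The counts of positive markers stand beside a median log2 fold change of 0.0044 over all genes tested. Summed TPM of 15 markers of Schwann cells and satellite glia was 3354 to 3442 in cKO and 3204 to 3206 in Ctrl, with 14 of 15 positive. By edgeR 0 were called without the block and 7 were called higher with it. At an unadjusted edgeR p under 0.05 without the block 7 were higher, and DESeq2 called 1 and limma-voom 0. Among all genes tested 1.76% were called higher with the block, and 4.62% were higher at an unadjusted edgeR p under 0.05. Summed TPM of 14 macrophage markers was 215 to 306 in cKO and 187 to 206 in Ctrl, with 14 of 14 positive, 1 called higher and 2 with the block. At an unadjusted edgeR p under 0.05, 8 of the 14 were higher and 0 lower, and DESeq2 called 1 and limma-voom 0. For 10 markers of dividing progenitors the sum was 459.5 to 475 in cKO and 432 to 457 in Ctrl, a narrow gap. Of these markers 8 of 10 were positive. By edgeR in either fit, DESeq2 or limma-voom 0 were called, and 0 passed an unadjusted edgeR p under 0.05. Erythroid markers summed to 41490 TPM in cKO replicate 1 and to 11810 to 19698 TPM in the other libraries. Of 9 tested, 9 were positive (median log2 fold change 0.47, and 0.27 with the block). By edgeR 0 of them were called in either fit, and 0 passed an unadjusted p under 0.05. Endothelial (344 to 375 TPM in cKO, 351 to 365 TPM in Ctrl) and mesenchymal sums (1084 to 1150 TPM in cKO, 1013 to 1146 TPM in Ctrl) overlapped. Sums were 18.2 to 23.4 TPM in cKO and 16.0 to 19.2 TPM in Ctrl for skeletal muscle, 70.01 to 81.4 TPM in cKO and 64.5 to 71.0 TPM in Ctrl for cartilage, 39.0 to 57.7 TPM in cKO and 50.9 to 55.3 TPM in Ctrl for spinal cord, and 359.5 to 429.7 TPM in cKO and 330.4 to 380.5 TPM in Ctrl for sympathetic neurons. These sums take in all listed markers, tested or not. Those tested were 7 of 12 for skeletal muscle, 6 of 9 for cartilage, 3 of 12 for spinal cord and 2 of 9 for sympathetic neurons. Of the spinal cord markers 1 of 3 tested was called higher in both edgeR fits, and of the cartilage markers 1 of 6 with the block. Of the 2 sympathetic markers tested 1 was higher and 1 lower at an unadjusted edgeR p under 0.05, and neither was called. No marker in these lists was at 0 in all libraries. Of all 17971 genes 17959 had a rounded count above 0 in some library, so little can be read from this. The part of these cells in the values of Etv4, Etv1 and the other genes was not tested, and in such bulk samples fewer cells of a type and less RNA per cell cannot be told apart.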

How the data were processed

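RNA was extracted with Trizol and made into libraries with an mRNA kit, per the labels' protocols. The submitters' processing notes name RSEM 1.3.1, Bowtie2 2.4.5, HISAT2 2.2.1 and the build GRCm38 (mm10), with no role or order given. For each library the authors deposited estimated counts, which are not normalized, TPM and FPKM. Here counts were rounded to whole numbers and filtered with filterByExpr. Genes were tested two-sided in edgeR 4.0.16 (R 4.3.3; quasi-likelihood F test, robust) with TMM scaling and Benjamini-Hochberg adjustment over all 14338 genes, at a threshold of 0.05. Each SE is the log2 fold change over the root of its F statistic. The model was checked on simulated data with the same dispersion for all genes. For the fit without the block, that simulation held no effect shared by same-numbered libraries, so the check does not cover such an effect. For the fit with the block, it held such an effect but kept the same dispersion. In the data the fitted coefficient of variation between embryos was 7.79% without the block and 4.94% with it. The check therefore does not cover the smaller spread of the blocked fit.

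Replicate numbers were taken to pair the libraries: controls are littermates, and departures from the group mean correlated across genes at 0.328, 0.205 and 0.184 within the pairs. The fit without the block is the main one. Members and lists were chosen with earlier results of these data known. Named genes are the 9 members, Ybx1, up to 4 called genes per list by smallest p (or else the 2 highest in TPM) and the 5 genes most like Etv4. Alternatives were DESeq2 1.42.0, limma 3.58.1 on counts and on log2(TPM + 1) or log2(TPM + 0.1), other scalings and filters, the block and left-out libraries. Leaving out both libraries of a number without the block was chosen after seeing the data. Fits without a number, with or without the block, have 2 libraries per group. Their p-values therefore lean on the spread estimated over all genes. Promoters come from RefSeq (GRCm38.p6) and overlapping genes from GENCODE M21. Figures used matplotlib 3.10.9. Arm sizes of 3 limit precision. The p-values set each difference against the spread between these embryos, estimated with information from all genes. Without the block that spread includes differences between the same-numbered pairs.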

Additional observations from a re-analysis of the deposited data

How the results depend on the processing

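Etv4 was lower under all 22 alternatives (log2 fold change -0.77 to -0.63) and called under 20. Etv1 was also lower under all 22 and called under 4, each with the replicate block. All alternatives reuse the same 6 libraries, so they are no independent support. In CPM the groups were apart for both genes, so their signs could hardly turn. The count of called members was 1 except for 2 with the replicate block, 2 with the block and library totals, 2 with the block and without number 1, 3 with the block and without number 3, and 0 without both libraries numbered 2 or without both numbered 3. Over all genes 69 were called, against 44 with library totals, 184 with DESeq2, 128 with no filter, 15 with either TPM fit, 764 with the replicate block, 799 with the block and library totals (396 higher, 403 lower), 1252, 260 and 836 with the block and without number 1, 2 or 3, 731, 8 and 2 without these and without the block, and 18 to 104 on leaving out single libraries. Of the listed pathway genes 1 was called, against 0 with library totals, 4 with DESeq2, 3 with no filter, 0 with either TPM fit, 18 with the replicate block, 15 with the block and library totals, 27, 5 and 16 with the block and without number 1, 2 or 3, 18, 0 and 0 without these and without the block, and 0 to 1 without single libraries. Signs turned for Spry1 without number 1 (0.011 with the block, 0.012 without it) and for Elf2 without number 3 (-0.013 with and without the block). On leaving out single libraries they turned for Etv5 (-0.015 to 0.19), Dusp6 (-0.12 to 0.037), Spry1 (-0.17 to 0.084) and Elf2 (-0.030 to 0.028). The cause was not tested. The order of levels was the same in FPKM for all 9 genes. This was nearly fixed in advance, because TPM and FPKM of a library differ by a constant factor. Depth and groups of 3 libraries limit these fold changes.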
